A study of Ovis aries with 14 samples.

Results

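The thyroid hormone axis was followed through 5 genes in the hypothalamus of fetal sheep exposed to triclosan, an antibacterial agent. The genes were TTR, THRB, TRHR, TSHR and HR, taken as every probe of the array whose gene name or matched symbol is one of these, without use of measured values. They were read by 6 probes, 2 of them for TRHR, out of 15008 probes on the array. By names in the files and matching to a gene table, 1559 of those probes carried a gene symbol, with 967 symbols in all. The other probes were not assigned to a gene. A gene not named on the array may therefore still be read by one of them.

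Hypothalamic RNA was collected from fetuses at about day 130 of gestation and measured on single-colour Agilent ovine arrays. In the direct arm the fetus was infused intravenously for 2 days with triclosan at 250 µg per day (4 arrays) or with vehicle (4 arrays). In the indirect arm triclosan at 100 µg/kg per day (3 arrays) or vehicle (2 usable arrays) entered the circulation of the ewe over the same time. The labels name no breed, sex or genotype and do not say whether the samples of a group came from separate pregnancies. The fetuses of the direct arm were catheterised, the triclosan doses of the arms differ in amount and unit, and p-values measure only the spread between these samples, which may be technical.

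The hypothalamus governs the thyroid through thyrotropin-releasing hormone (TRH), which acts on pituitary thyrotrophs through its receptor, TRHR. The thyrotrophs release thyrotropin (TSH), a dimer of the subunits encoded by CGA and TSHB, and TSH drives the thyroid through TSHR. In the blood and the cerebrospinal fluid thyroid hormone travels bound to carriers. One of them is transthyretin, the product of TTR, which the choroid plexus makes and secretes in large amounts and which therefore also marks that tissue. Inside cells the hormone binds nuclear receptors encoded by THRA and THRB. HR encodes hairless, a nuclear corepressor that binds thyroid hormone receptors and is known in the rat brain as a gene that thyroid hormone induces.

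Each array probe is a DNA strand of 60 bases that hybridises labelled RNA, so the level of a gene is the brightness of a short stretch of its transcript. The stretches that the results rest on are shown from the files, whole for the THRB and HR probes and as the first 30 bases for the probes near a transcript end:
TTR: ggtggactcaaaggatgaaggacaggattt
THRB: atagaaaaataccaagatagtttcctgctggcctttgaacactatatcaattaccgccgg
TRHR probe 1: tcaacccaagagaggaaacagccgattact
TRHR probe 2: ccttcagccaaagttgattgatggagtaga
TSHR: cctacacagctatcattatcaggccaaaag
HR: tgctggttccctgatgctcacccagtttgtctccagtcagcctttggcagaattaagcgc

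The TTR probe covers bases 468 to 527 of its transcript and the TSHR probe starts at base 3412. The TRHR probes lie next to each other without overlap, at bases 1587 to 1646 for probe 1 and 1518 to 1577 for probe 2. The THRB probe covers bases 1527 to 1586 and is named in the files by the old symbol of its oncogene homologue, ERBA BETA1. The HR probe covers bases 1946 to 2005. GC content was 35.0% in the TTR probe, 40.0% in the THRB probe, 43.3% and 36.7% in the TRHR probes and 53.3% in the HR probe. Probes differ in how they hybridise, so no probe's level is set against another's. TSHR was printed in 5 spots on each array, whose SD within an array lay between 0.09 and 0.30 log2 units, and the other 5 probes in 1 spot.

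For thyroid hormone receptor alpha, THRA, the array carries 2 probes that share 56 bases. Their first 30 bases are shown with the 26 shared bases in capitals:
THRA probe 1: AAAGAGCGAGCGACTGATAGAGAGATgata
THRA probe 2: gaaaAAAGAGCGAGCGACTGATAGAGAGAT

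THRA probe 1 was well above background on 1 of the 13 arrays, a fetal vehicle array, and probe 2 on none, so this receptor gave no measured level. THRB, in contrast, was well above background on all 13 arrays, as were the probes of TTR, TRHR, TSHR and HR. Every one of the 6 probes of the 5 genes therefore passed the filter on dim probes. None was saturated.

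Some facts of the whole series bear on these values. The third deposited maternal vehicle array holds, at all 15744 spots, 0.6 times the signal of replicate 1 plus 0.4 times that of replicate 2 of its group, so it was left out and 13 arrays were used. The median processed signal was 236.1 to 307.4 on the fetal triclosan arrays, 315.4 to 380.0 on the fetal vehicle arrays, 284.3 to 375.8 on the maternal triclosan arrays and 350.9 to 353.9 on the maternal vehicle arrays. All fetal triclosan medians were below all fetal vehicle medians. Slides 1 and 2 each carried the replicate of the same number from all groups, slide 3 carried replicate 3 of the triclosan groups with fetal vehicle replicates 3 and 4 and no maternal vehicle array, and fetal triclosan replicate 4 lay on a slide and scan day of its own. Of the 22 hypothalamic markers listed, all 12 named on the array were measured, among them the peptide genes POMC, AGRP, NPY, OXT and SST, which were well above background on all 13 arrays. TRH itself, CRH and AVP are not among those 12. No oligodendrocyte marker of the list was named on the array, and the number of arrays limits the precision of every value.

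Levels below are log2 of the processed signal relative to the 75th percentile of the array. Each difference is a log2 difference between group means, tested with limma across 13738 probes with Benjamini-Hochberg adjustment and called when the adjusted p was under 0.05. In the direct arm 18.2% of all probes were called (937 or 6.82% higher and 1561 or 11.4% lower, and 33.1% at an unadjusted p under 0.05), and in the indirect arm 0.0%, with 9.64% at an unadjusted p under 0.05. None of the 6 probes was called in either arm, against those shares of all probes. When arrays were scaled by their median the direct calls split into 2175 higher and 946 lower, and the median of all direct differences was then 0.13, against -0.09 on the main scale.

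Cell type lists were read beside the members. In the direct arm KDR, FLT1 and CD93 were called lower among 5 endothelial genes. PECAM1 had a direct difference of -0.26 (adjusted p = 0.358 in limma) and TIE1 of 0.06 (adjusted p = 0.815), neither called. FLT1 was well above background on 0 of 4 fetal triclosan arrays, so its level there is only a bound. Its fetal vehicle mean was at least 1.75-fold higher. Among 12 hypothalamic genes ARNT2, a transcription factor, was called lower, at a log2 difference of -0.77, while the median difference over the 12 was 0.78. The peptide genes GHRH at 2.32, GNRH1 at 1.61, AGRP at 1.17, SST at 1.14, GAL at 1.06 and TAC3 at 0.90 were not called. With slide as a block GHRH, AGRP, NPY, SST, GAL and TAC3 were called higher and ARNT2 kept its call. Among 6 genes of the meninges and connective tissue PTGDS was called higher, at 0.55, while the collagen genes COL3A1 and COL1A2 had differences of -0.72 and -0.42 that were not called. A further COL3A1 probe was called lower, at -1.32 (adjusted p = 0.00429 in limma). With slide as a block TIMP1 of that list was also called higher. Among 3 erythroid genes AHSP was called higher, at 0.94, and lost its call with slide as a block. VIM and AQP4, the 2 genes measured for ependyma and tanycytes, were not called. ARNT2, PTGDS and AHSP were called in 18, 16 and 16 of 24 alternatives. No highest-mean probe of a gene in these lists was called in the indirect arm. The part of these differences in the values of the members was not tested.

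TTR, the thyroid hormone carrier, varied more than any other of the genes. Its levels were -2.08, 1.98, 3.38 and -0.17 on the fetal triclosan arrays, against 0.63, -0.97, -0.94 and 1.37 on the fetal vehicle arrays. The fetal triclosan group held both the lowest and the highest TTR level of all 13 arrays, which were 44.2-fold apart, and its range enclosed that of the fetal vehicle group. Fetal triclosan and fetal vehicle overlapped on all 6 probes, where 21.9% of all probes had direct groups that did not. TTR averaged 0.78 ± 2.40 with fetal triclosan (SD, n = 4) and 0.02 ± 1.17 with fetal vehicle (SD, n = 4). The direct difference was 0.76 with a 95% interval from -1.43 to 2.94 and an adjusted p of 0.636 in limma, so it was smaller than the spread. An interval that wide holds differences of several fold in both directions. In a bulk sample fewer cells of a type and less RNA per cell cannot be told apart.

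The direct TTR difference took opposite signs on different slides. It was -2.71 within slide 1, 2.95 within slide 2 and 3.17 within slide 3, and the fit with slide as a block gave 1.25. Without fetal triclosan replicate 3, the brightest array for TTR, the difference was -0.11, and without replicate 1, the dimmest, it was 1.71. Single arrays therefore decided its size and its sign.

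In the indirect arm TTR read -0.59, -1.79 and -1.58 on the maternal triclosan arrays, against 0.50 and -0.11 on the maternal vehicle arrays. All 3 maternal triclosan levels were below both maternal vehicle levels, and the groups averaged -1.32 ± 0.64 (SD, n = 3) and 0.20 ± 0.43 (SD, n = 2). The indirect difference was -1.51 (95% interval -4.33 to 1.31, adjusted p = 0.699 in limma). That interval and p use a spread shared by all groups, among them fetal triclosan with its SD of 2.40. Fitted on the groups of the indirect arm alone, the same difference had an adjusted p of 0.241 in limma, again not called. Within slides the indirect difference was -1.09 on slide 1 and -1.68 on slide 2. Leaving out any 1 of the 5 arrays of the arm kept it between -1.88 and -1.21. At these group sizes 39.1% of all probes had maternal triclosan and maternal vehicle groups that did not overlap, and 19.1% had the maternal triclosan group lower. The difference between the arms for TTR was 2.27 (95% interval -1.30 to 5.84, adjusted p = 0.50 in limma), a comparison in which 0.0% of all probes were called and 14.7% had an unadjusted p under 0.05.

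Ordered by mean TTR level, the groups were fetal triclosan, maternal vehicle, fetal vehicle and maternal triclosan, and each step in that order was smaller than the pooled within-group SD of 1.58. That SD was larger than the SD of 99.6% of all probes with a value on every array, for which the median was 0.28. Among the members, TSHR exceeded 96.5% of probes, the TRHR probes 93.5% and 92.0%, THRB 50.2% and HR 29.9%. The carrier and the membrane receptors thus lay in the upper tail of the spread, and the nuclear receptor and the corepressor in its middle and lower part.

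**Figure D1:**
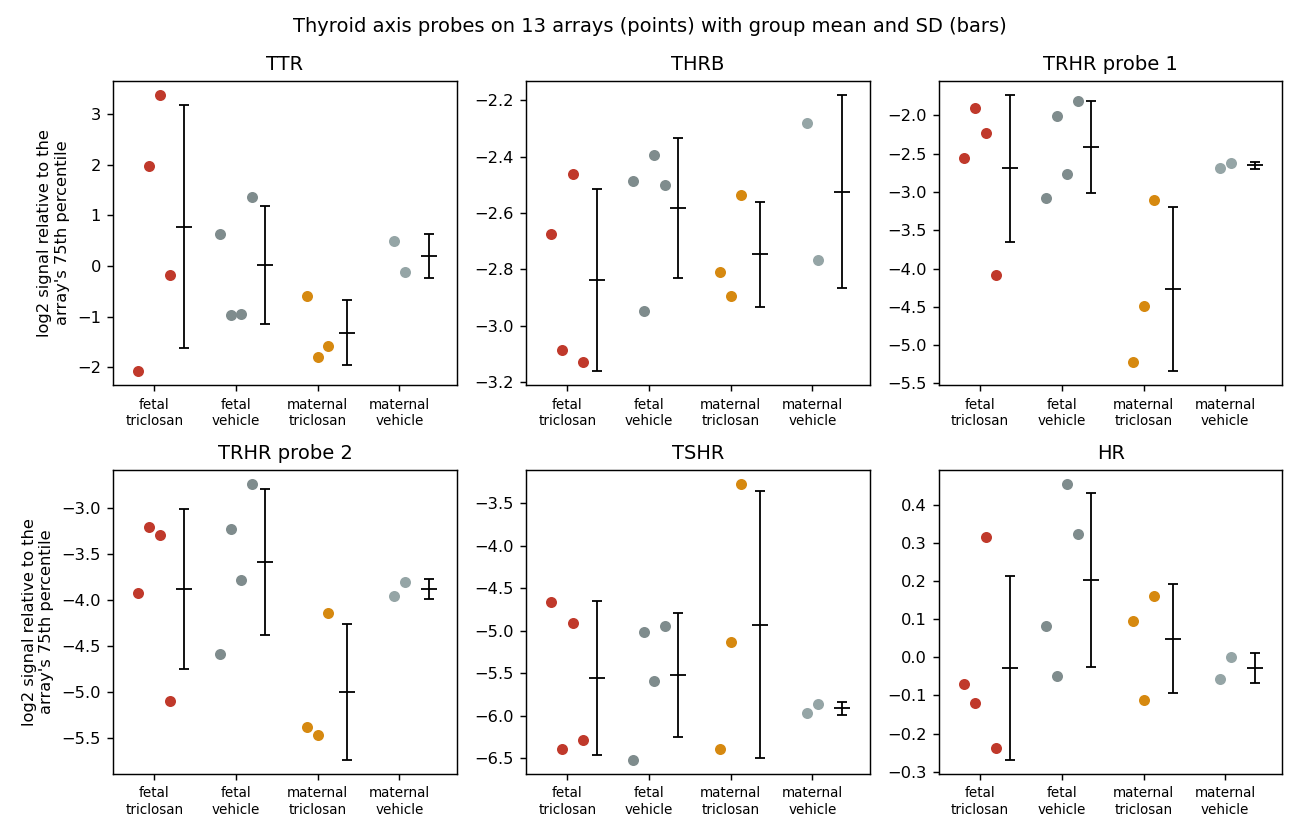
Level of each of the 6 probes (log2 signal relative to the array's 75th percentile, vertical axes differ) on 13 arrays, as points by group, with the group mean and SD as bars. TTR on fetal triclosan arrays runs from -2.08 to 3.38 around the fetal vehicle values, and TRHR probe 1 on maternal triclosan arrays lies at -3.11 and below, under both maternal vehicle arrays.

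**Figure D2:**
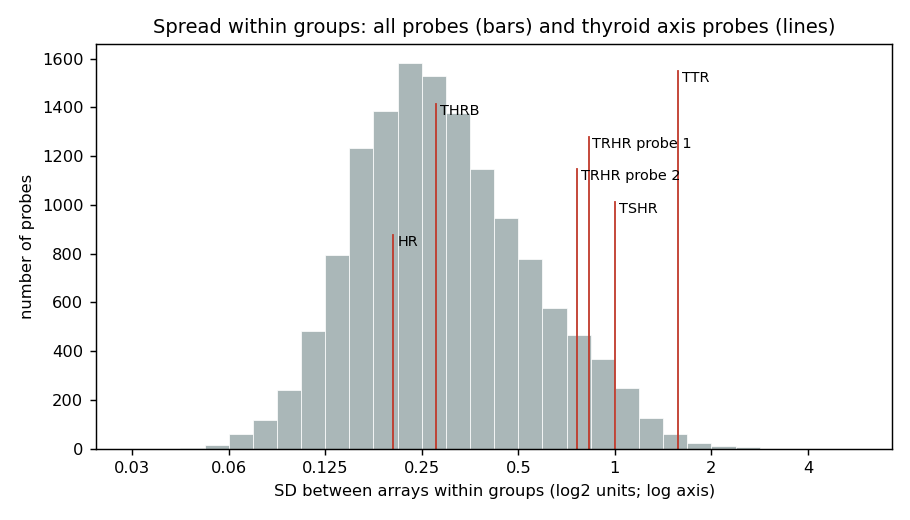
Number of probes (vertical axis) by SD between arrays within groups in log2 units (horizontal log axis), with the SDs of the 6 thyroid axis probes as red lines whose heights carry no value. TTR at 1.58 stands beyond nearly all probes, while THRB at 0.28 lies at the median.

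Because TTR also marks the choroid plexus, the other choroid plexus genes were read beside it. Of 20 listed genes 7 were named on the array and 6 were measured, and the highest-mean probe of each was called in neither arm. Over the 5 without TTR the median direct difference was 0.09, against -0.09 over all probes, and the median indirect difference 0.35, against 0.01. AQP1, a water channel of the choroid epithelium, was well above background on 1 fetal triclosan, 0 fetal vehicle, 1 maternal triclosan and 1 maternal vehicle array. CLDN2, a tight junction protein of the same epithelium, was well above background on too few arrays to be tested. A further PRLR probe, dim on every fetal triclosan array, was called lower in the direct arm (adjusted p = 0.00727 in limma), with both groups too near background for a fold. Another PRLR probe, dim on every fetal vehicle array, went the other way, at 0.82 (adjusted p = 0.553 in limma). The highest-mean PRLR probe had -0.66 (adjusted p = 0.157 in limma). No probe carried the name of KL, CLIC6, FOLR1, KCNJ13 or OTX2, which also mark the choroid epithelium.

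The summed linear level of AQP1, PRLR, IGF2, IGFBP2 and CP, without TTR, was 7.52 to 12.6 on the fetal triclosan arrays, 7.97 to 11.0 on the fetal vehicle arrays, 10.9 to 18.1 on the maternal triclosan arrays and 9.16 on both maternal vehicle arrays. In the indirect arm that sum was therefore higher on every maternal triclosan array than on either maternal vehicle array, while TTR was lower on every one. Over the 13 arrays, all sharing their scaling with both genes, Pearson's r of TTR was -0.43 with AQP1, -0.45 with CP, -0.21 with IGF2, -0.09 with PRLR and 0.29 with IGFBP2. Most of that sum is IGFBP2 and IGF2, which other brain and connective tissue cells also express. The part of choroid plexus tissue in the TTR values was not tested beyond these readings.

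TRHR, the receptor through which TRH acts, gave the lowest unadjusted p of the members. On probe 1 its levels were -5.22, -4.48 and -3.11 on the maternal triclosan arrays, against -2.68 and -2.62 on the maternal vehicle arrays. On probe 2 they were -5.37, -5.47 and -4.15 with maternal triclosan, against -3.96 and -3.81 with maternal vehicle. On both probes every maternal triclosan array was below both maternal vehicle arrays, and replicate 3 lay closest to them. The indirect difference was -1.62 on probe 1 (SE 0.681, 95% interval -3.11 to -0.13), with an unadjusted p of 0.036 and an adjusted p of 0.501 in limma. On probe 2 it was -1.11 (SE 0.629, 95% interval -2.49 to 0.27), with an adjusted p of 0.579 in limma.

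The TRHR difference thus did not pass the test over all probes. An unadjusted p under 0.05 with a lower level in the maternal triclosan group was found for 4.71% of all probes. The within-slide differences were -2.54 on slide 1 and -1.86 on slide 2 for probe 1, and -1.41 and -1.66 for probe 2. Leaving out 1 array of the arm at a time kept probe 1 between -2.20 and -1.14 and probe 2 between -1.54 and -0.88, with no call. Both probes read 1 gene in the same RNA, with Pearson's r = 0.96 over the 13 arrays, so the second is no independent observation.

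In the direct arm TRHR probe 1 read -2.55, -1.90, -2.23 and -4.08 with fetal triclosan, against -3.08, -2.0, -2.76 and -1.81 with fetal vehicle. Probe 2 read -3.93, -3.21, -3.30 and -5.09 with fetal triclosan, against -4.59, -3.23, -3.78 and -2.74 with fetal vehicle. The groups overlapped, and fetal triclosan replicate 4, the array on a slide of its own, was the lowest of the arm on both probes. The direct difference was -0.28 on probe 1 (95% interval -1.43 to 0.88, adjusted p = 0.750 in limma) and -0.30 on probe 2 (95% interval -1.37 to 0.77, adjusted p = 0.709 in limma).

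Its sign depended on that array and on the processing, since in the authors' deposited values probe 1 had 0.066. Without fetal triclosan replicate 4 the direct difference was 0.18 on probe 1 and 0.11 on probe 2. The 3 within-slide differences, which do not use that array, were 0.53, 0.10 and 0.05 on probe 1 and 0.66, 0.02 and -0.04 on probe 2. The difference between the arms was 1.34 on probe 1 (adjusted p = 0.458 in limma) and 0.81 on probe 2 (adjusted p = 0.619 in limma), so the response of TRHR was not shown to differ between the arms.

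By mean level of TRHR probe 1 the groups ran from fetal vehicle through maternal vehicle and fetal triclosan, which lay within 0.28 of each other, to maternal triclosan, which lay below them by more than the pooled within-group SD of 0.83. The highest and lowest arrays were 10.6-fold apart on probe 1 and 6.64-fold apart on probe 2.

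TSHR, the thyrotropin receptor, varied most among the membrane receptors. Its levels were -4.66, -6.39, -4.90 and -6.28 with fetal triclosan, against -6.52, -5.01, -5.59 and -4.94 with fetal vehicle. With maternal triclosan they were -6.39, -5.13 and -3.27, against -5.97 and -5.86 with maternal vehicle. The groups overlapped in both arms, and maternal triclosan replicate 3 was the highest of all 13 arrays, 9.54-fold above the lowest.

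The direct difference of TSHR was -0.04 (95% interval -1.43 to 1.35, adjusted p = 0.972 in limma), with 1.86, -1.38 and 0.36 within slides 1, 2 and 3. The indirect difference was 0.98 (95% interval -0.81 to 2.78, adjusted p = 0.697 in limma), with -0.43 and 0.73 within slides 1 and 2. The difference between the arms was -1.03 (adjusted p = 0.628 in limma). In the order maternal triclosan, fetal vehicle, fetal triclosan and maternal vehicle each step was smaller than the pooled within-group SD of 1.00. The spot-to-spot SD within an array was at most 0.30, so the spread between arrays was the larger.

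THRB, the beta receptor, varied little. Its levels were -2.67, -3.09, -2.46 and -3.13 with fetal triclosan, against -2.49, -2.95, -2.39 and -2.50 with fetal vehicle. With maternal triclosan they were -2.81, -2.89 and -2.54, against -2.28 and -2.77 with maternal vehicle. The 13 arrays spanned 1.80-fold, and the groups of both arms overlapped.

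The direct difference of THRB was -0.26 (95% interval -0.67 to 0.16, adjusted p = 0.386 in limma) and the indirect difference was -0.22 (95% interval -0.76 to 0.32, adjusted p = 0.764 in limma). Within slides the direct difference was -0.19, -0.14 and -0.01. The median of all probes moved with it: on this scale it was -2.66 to -2.39 on the fetal triclosan arrays and -2.36 to -2.26 on the fetal vehicle arrays, and its Pearson's r with THRB was 0.71 over 13 arrays and 0.42 without the 2 farthest. With arrays scaled by their median the direct difference of THRB was -0.04, and in quantile-normalised values it was -0.01. Within slides 1 and 2 the indirect difference was -0.53 and -0.13. No step in the order maternal vehicle, fetal vehicle, maternal triclosan and fetal triclosan reached the pooled within-group SD of 0.28.

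HR, the corepressor and thyroid hormone target, varied least. Its levels were -0.07, -0.12, 0.32 and -0.24 with fetal triclosan, against 0.08, -0.05, 0.46 and 0.32 with fetal vehicle. With maternal triclosan they were 0.10, -0.11 and 0.16, against -0.06 and 0.00 with maternal vehicle. The groups overlapped in both arms and all 13 arrays lay within 1.62-fold.

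The direct difference of HR was -0.23 (95% interval -0.56 to 0.10, adjusted p = 0.316 in limma), with -0.15, -0.07 and -0.07 within slides, and the indirect difference was 0.08 (95% interval -0.35 to 0.50, adjusted p = 0.911 in limma), with 0.15 and -0.11 within slides 1 and 2. As for THRB, median scaling brought the direct difference close to 0, at -0.01. Each step in the order of group means was below the pooled within-group SD of 0.20. Of the members, HR and THRB had the narrowest intervals and TTR the widest.

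**Figure D3:**
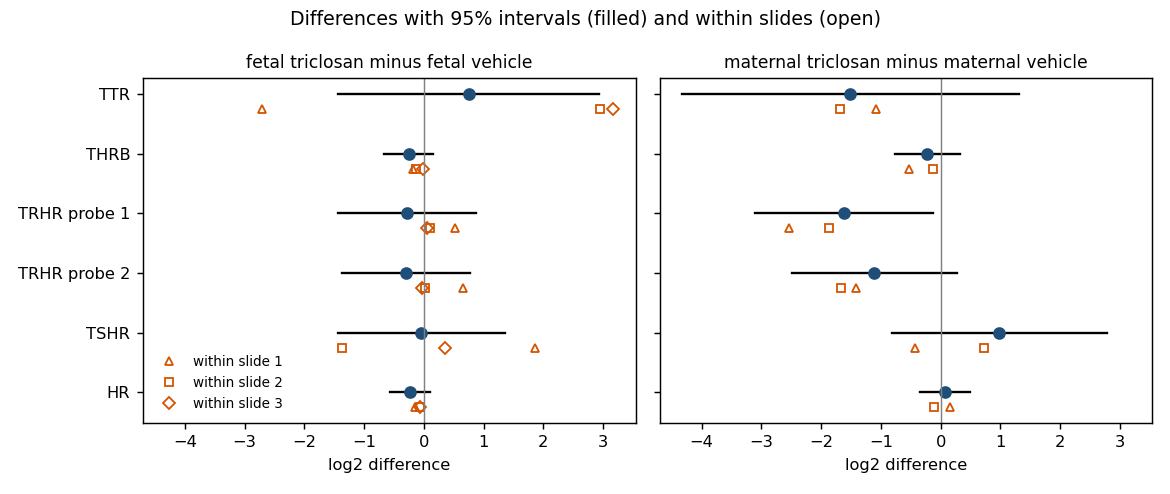
Log2 difference of each probe (horizontal axis) for fetal triclosan minus fetal vehicle (left) and maternal triclosan minus maternal vehicle (right), with filled points and 95% intervals from limma and open marks for the differences within slides 1, 2 and 3. The TTR marks of the direct arm lie on both sides of 0, at -2.71, 2.95 and 3.17, and the TRHR probe 1 interval of the indirect arm ends at -0.13.

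Maternal vehicle and fetal vehicle differ, per the labels, in the route of the infusion. Between these groups the differences of the members were 0.17 for TTR, 0.06 for THRB, -0.24 and -0.30 for the TRHR probes, -0.40 for TSHR and -0.23 for HR, as maternal minus fetal vehicle. All had an adjusted p of 0.999 in limma, and 0.0% of all probes were called, with 3.28% at an unadjusted p under 0.05. The vehicle groups of every member overlapped, where 17.2% of all probes had vehicle groups that did not.

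The rest of the axis was sparsely covered. Of 32 genes listed for the thyroid axis 11 were named on the array and 9 were measured, and none was called in either arm. The median direct difference over the 9 was -0.06, against -0.09 over all probes, and the median indirect difference was -0.17, against 0.01. SERPINA7, which encodes thyroxine-binding globulin, stood well above background on none of the arrays. No probe carried the name of a deiodinase, a hormone transporter or TRH. ALB, which encodes albumin, another carrier, had a direct difference of 0.68 (adjusted p = 0.210 in limma) and an indirect difference of 0.67 (adjusted p = 0.630). A further ALB probe, well above background on all 13 arrays, had 0.42 (adjusted p = 0.303 in limma) and -0.01 (adjusted p = 0.993). PCSK1, a protease that cleaves prohormones such as that of TRH, had a direct difference of -0.06 (adjusted p = 0.924 in limma) and an indirect difference of -0.24 (adjusted p = 0.879).

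The hormone subunits varied by far more than the receptors. CGA, the shared alpha subunit, read -0.90, -3.19, -3.72 and -5.56 with fetal triclosan, against -4.59, -5.59, -3.31 and 0.07 with fetal vehicle. It read -3.70, -0.03 and -0.34 with maternal triclosan, against -5.32 and -5.05 with maternal vehicle. The maternal triclosan arrays were all above the maternal vehicle arrays, with an indirect difference of 3.83 (95% interval 0.18 to 7.47, adjusted p = 0.514 in limma), and the direct groups overlapped, with a difference of 0.01 (adjusted p = 0.996). TSHB, the TSH-specific subunit, was well above background on 1 fetal triclosan, 1 fetal vehicle, 2 maternal triclosan and 0 maternal vehicle arrays, so its maternal vehicle level is only a bound. It averaged at least 2.48-fold higher with maternal triclosan than that bound, with an adjusted p of 0.562 in limma.

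TSHB and CGA were both high on maternal triclosan replicates 2 and 3 and on fetal vehicle replicate 4, as the plot of axis genes by array shows, while TSHB was also high on fetal triclosan replicate 2 and CGA on replicate 1. TSHR was high on maternal triclosan replicate 3 as well, and over the 13 arrays its Pearson's r was 0.63 with CGA and 0.33 with TSHB. For TRHR the r was -0.02 with CGA and 0.03 with TSHB. Of 14 genes listed for the pituitary, CGA and TSHB among them, 9 were named on the array and 8 measured, with none called in either arm. The summed linear level of the 6 measured genes other than CGA and TSHB, most of it LHB, was 10.8 to 20.2 with fetal triclosan, 10.7 to 14.9 with fetal vehicle, 13.6 to 17.7 with maternal triclosan and 13.6 to 15.1 with maternal vehicle. Their median difference was -0.23 in the direct arm and 0.02 in the indirect arm. The LHB probe in that sum read 3.41 to 4.33 over the 13 arrays, while a further LHB probe read -3.90 to -2.80. The sum thus depends on the LHB probe taken.

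The pituitary genes took different signs in the indirect arm. PRL, which encodes prolactin and was well above background on all 13 arrays, had an indirect difference of -1.57 (unadjusted p = 0.00653, adjusted p = 0.436 in limma) and differed by 2.02 between maternal and fetal vehicle (unadjusted p = 0.000815, adjusted p = 0.999). Maternal vehicle replicates 1 and 2 read -3.19 and -1.19, against -3.86 to -3.60 with maternal triclosan, so replicate 2 carried much of both differences. On a further PRL probe the indirect groups overlapped, with a difference of -1.90 (unadjusted p = 0.06, adjusted p = 0.539 in limma). GHRHR, the receptor for growth hormone-releasing hormone, had an indirect difference of -1.68 (adjusted p = 0.515 in limma), where CGA had 3.83. GNRHR, the receptor of gonadotropes for their releasing hormone, was well above background on none of the arrays, and POU1F1, a factor of thyrotrophs and related cells, was on 1 fetal triclosan, 2 fetal vehicle, 2 maternal triclosan and 0 maternal vehicle arrays. The part of pituitary cells in the TSHR and TRHR values was not tested.

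The list of genes that respond to thyroid hormone in the brain held 15 genes, of which 4 were measured and none called. Besides HR these were NRGN, a calmodulin-binding protein of neurons that thyroid hormone regulates in rodents, SHH, a secreted patterning signal, and DBP, a clock-controlled transcription factor. NRGN had a direct difference of 0.23 (adjusted p = 0.643 in limma) and DBP of 0.17 (adjusted p = 0.280). SHH was well above background on 0 of 4 fetal triclosan arrays and on 3 of 4 fetal vehicle arrays, with a direct difference of -1.12 and an adjusted p of 0.0687 in limma. Because its fetal triclosan level is only a bound, the fetal vehicle mean was at least 1.04-fold higher than with fetal triclosan. SHH passed the threshold in 3 of 24 alternatives and DBP in 1, that with median scaling. A further SHH probe, too dim to be tested, had medians of -7.215 with fetal triclosan and -7.251 with fetal vehicle. The indirect differences of the same genes were 0.09 for NRGN, 0.15 for DBP and 0.75 for SHH, with adjusted p of 0.954, 0.706 and 0.625 in limma.

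**Figure D4:**
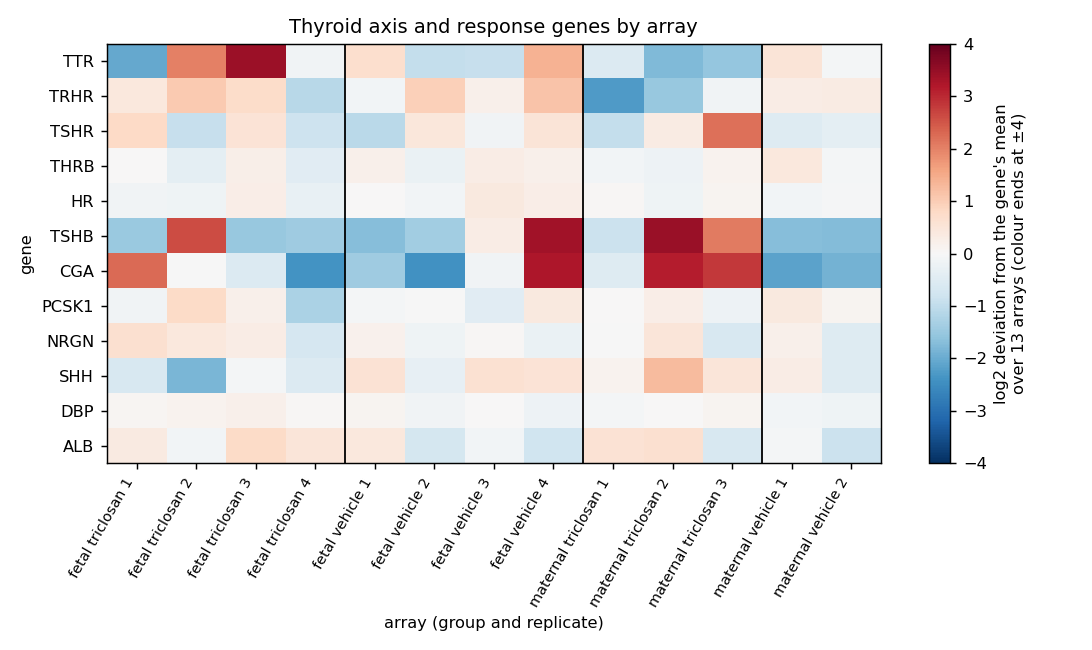
Log2 deviation of 12 thyroid axis and response genes (rows) from each gene's mean over the 13 arrays (columns, by group and replicate), with red above and blue below the mean. TTR is highest on fetal triclosan replicate 3, while TSHB and CGA share 3 of their high arrays and THRB, HR and DBP are pale throughout.

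Pairs of members differed in how alike they were across arrays. Over the 13 arrays Pearson's r was 0.69 between THRB and HR and 0.44 between TTR and TRHR, and between -0.31 and 0.30 for the other 8 pairs. All of them share the scaling of the array. As a description, the genes most like each member were taken from 888 named genes by the highest r over the 13 arrays, which are high in part because they were chosen so.

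For TTR these were HSD11B2, ISG15 and RTP4, with r of 0.78, 0.73 and 0.72 and Spearman's rho of 0.42, 0.53 and 0.60. Without the 2 arrays farthest from the median TTR level r was 0.26, 0.21 and 0.45, so the likeness rested on those arrays, and HSD11B2 was well above background on 4 arrays only. For TRHR they were ASIP, LGMN and TKDP1, with r of 0.78, 0.78 and 0.76, which were -0.14, 0.47 and 0.38 without the 2 farthest arrays. For TSHR they were POMC, GUCA2B and SNAI2, with r of 0.69, 0.67 and 0.66, which were 0.49, 0.57 and 0.29 without them.

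The likeness of THRB and HR to other genes did not rest on 2 arrays in this way. THRB was most like CD80, NGN3 and EPOR, with r of 0.97, 0.95 and 0.94, rho of 0.97, 0.91 and 0.92, and r of 0.94, 0.92 and 0.93 without the 2 farthest arrays. NGN3 was well above background on 7 of the 13 arrays. HR was most like CAT-1, AANAT and CHRM3, with r of 0.88, 0.88 and 0.87, which were 0.90, 0.74 and 0.77 without the 2 farthest. THRB and HR are also the members whose levels followed the median of all probes, with r of 0.71 and 0.54. Both also sorted by slide across groups. HR read 0.16 to 0.46 on the slide 3 arrays, above every other array. THRB read -3.09 to -2.77 on slide 2, below all arrays of slide 3 (-2.54 to -2.395). With slide as a block the direct differences were -0.10 for THRB and -0.11 for HR. The part of the slide in these likenesses was not tested.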

How the data were processed

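Per the file headers, each deposited scanner file holds intensity values per spot, made with Agilent Feature Extraction 10.1.1.1, and its processed signal was background-subtracted within the array and not normalised between arrays. The authors' deposited table of log2 values, whose scaling the sources used here do not give, served as an alternative. The processed signal was taken as log2 minus the 75th percentile of each array, control and outlier spots were left out, and spots of a probe were averaged. A probe counted as well above background on an array when at least as many of its spots were flagged so as were not. Probes well above background on at least 3 of 13 arrays were kept (13738 probes with 250 missing values, none in the 5 genes). The fit, by limma 3.58.1 (R 4.3.3), had a mean for each group and, for each probe, a spread shared by all groups. It had 9 residual degrees of freedom and 2.36 prior ones, and was tested on simulated data. Alternatives changed the background correction, scaling, filter, array set or block, or left out 1 array.

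Tests and 95% intervals are limma's and two-sided. Where no array of a group was well above background, each of its dim values was raised to the lowest such signal of its array and the fold is given as "at least". Probe names came from the files and a RefSeq gene table. Each gene of a list is its probe of highest mean level. The named genes are all measured genes of both thyroid lists, leading or called genes of the cell type lists, and for each member the 3 genes most like it. One gene of the thyroid axis list that meets this rule is not reported here. The members, lists and tests were chosen with earlier results of these data known. Plots used matplotlib 3.10.9 and tables pandas 2.3.3, under Python 3.11.15.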

Additional observations from a re-analysis of the deposited data

How the results depend on the processing

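None of the 6 probes passed the threshold in any comparison under any alternative. Of 570 member differences recomputed, 45 changed sign, in 13 of 24 results. In each of these the main difference was smaller than its SE, though only just for TSHR between the arms (-1.026, SE 1.036). The cause was not tested. Part of the 570 could not change sign. Leaving out an array of a group not compared, or changing the filter, leaves the difference as it was. For THRB the difference between the arms was 0.088 with normexp correction, 0.20 with quantile normalisation, 0.15 with median scaling, 0.15 in the authors' deposited values, 0.085 with the replicate block and 0.23 with the slide block. For TRHR probe 1 the direct difference was 0.066 in the authors' deposited values and 0.28 with the slide block, which also gave 0.065 between the vehicle groups. For TRHR probe 2 the direct difference was 0.006 with quantile normalisation, 0.022 in the authors' values and 0.23 with the slide block, and the vehicle difference was 0.094 with normexp and 0.061 with the slide block. For TSHR the direct difference was 0.15 with normexp, 0.19 with quantile normalisation, 0.18 with median scaling, 0.027 in the authors' values and 0.38 with the slide block. The TSHR difference between the arms was 0.088 with normexp, and its vehicle difference 0.39 with normexp and 0.16 with the slide block. For HR the indirect difference was -0.089 with normexp, -0.097 in the authors' values, -0.037 with the replicate block and -0.032 with the slide block.

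With 1 array left out at a time, direct differences ranged from -0.11 to 1.71 for TTR, -0.54 to 0.18 and -0.63 to 0.11 for the TRHR probes, and -0.38 to 0.23 for TSHR. Over the same fits THRB ranged from -0.47 to 0.021 for the indirect difference, -0.28 to 0.21 between the arms and -0.19 to 0.30 between the vehicle groups, where TTR ranged from -0.16 to 0.62. The direct arm had 2498 probes called, 1339 when fitted on its own groups, and 1226 to 2955 with 1 array left out. Calls lay at 0 to 2 for the indirect arm, 0 to 12 between the arms and 0 to 2 between the vehicle groups with 1 array left out, and all 14 arrays gave 12 for the indirect arm and 4 between the arms. Quantile normalisation gave 1 call between the arms.

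Replicate numbers were shared between groups, but the pairs correlated at 0.131, 0.118, 0.265 and -0.171 in the direct arm and -0.084 and -0.076 in the indirect arm, so they were not taken to pair the samples. In the direct arm 3 of 4 triclosan arrays correlated best with the vehicle array of their own number, and in the indirect arm 0 of 2. The replicate block gave 2824 direct calls. The indirect arm rests on 2 maternal vehicle arrays, and signal over background limits TSHB, SHH, AQP1 and THRA, and TSHR on its dimmest arrays.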
